A study of Mus musculus with 6 samples.

Results

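Genes that drive and carry out cell division were examined in 2 stable lines of mouse embryonic stem cells. The set held 54 genes, chosen by name as mitotic cyclins and kinases and as checkpoint, kinetochore, spindle, cytokinesis and chromosome condensation genes. All 54 were found among the 23238 gene symbols of the count files, with Knl1 listed there under its older symbol Casc5. One line, called EWS-OCT-4 below, expressed EWS-OCT4A-GFP, which joins EWS, a protein found in Ewing sarcoma fusions, to the pluripotency factor OCT-4. The control line carried EGFP. Both lines derive from 129/Ola cells that the labels name Niwa, were grown with LIF in medium for stem cells, and received doxycycline at 1 µg/ml to lower their endogenous OCT-4. Each line gave 3 libraries of 3′ RNA tags. The promoter of the transgene, the number of clones behind a line and the cultures behind its 3 libraries were not given in the sources used here. The p-values therefore measure only the spread between these libraries, which may be technical. No library lacked doxycycline, so "rose" and "higher" below mean a higher level in EWS-OCT-4 than in EGFP, and the fusion cannot be told apart from whatever else sets the lines apart.

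As background, cells enter mitosis when cyclin B activates the kinase CDK1, after CDC25 phosphatases remove the phosphates that hold it inactive. Kinetochores then form on centromeres and attach to spindle microtubules, while a checkpoint holds back the anaphase-promoting complex until every chromosome is attached. That complex, with CDC20 and UBE2C, marks securin and cyclin B for destruction, after which separase parts the sister chromatids and the cell divides. Most of these genes are transcribed in late S phase and G2 by B-MYB, the MuvB complex and FOXM1, acting through a promoter element called the CHR (cell cycle genes homology region), often beside CCAAT boxes bound by NF-Y. Mouse embryonic stem cells divide fast with a short G1 phase, whereas trophoblast giant cells copy their DNA without dividing.

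Most promoters of these genes carry letters of the elements named above, and 8 are shown for genes with and without them on either side of the threshold of the test. Each line gives the 100 bases before the annotated start (RefSeq, GRCm38.p6), 5′ to 3′ on the strand of the gene. Capitals mark a CHR (TTTGAA or TTCGAA) or a CCAAT box (CCAAT), read on either strand.
Ube2c (chr2:164769829-164769928, plus strand): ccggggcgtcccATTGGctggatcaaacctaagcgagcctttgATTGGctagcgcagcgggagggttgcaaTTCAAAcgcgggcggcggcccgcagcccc
Top2a (chr11:99024190-99024289, minus strand): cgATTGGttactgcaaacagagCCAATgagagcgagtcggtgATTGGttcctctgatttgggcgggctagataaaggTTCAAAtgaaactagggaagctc
Espl1 (chr15:102296193-102296292, plus strand): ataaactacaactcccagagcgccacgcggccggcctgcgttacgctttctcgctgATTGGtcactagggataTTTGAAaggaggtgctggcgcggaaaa
Kif11 (chr19:37376282-37376381, plus strand): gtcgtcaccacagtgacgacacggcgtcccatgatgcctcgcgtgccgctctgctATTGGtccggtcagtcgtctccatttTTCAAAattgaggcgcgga
Cdc20 (chr4:118437344-118437443, minus strand): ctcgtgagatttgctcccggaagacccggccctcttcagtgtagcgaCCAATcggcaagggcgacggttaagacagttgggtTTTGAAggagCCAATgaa
Cdk1 (chr10:69352913-69353012, minus strand): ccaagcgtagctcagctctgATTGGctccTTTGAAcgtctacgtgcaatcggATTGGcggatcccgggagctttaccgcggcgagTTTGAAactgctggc
Nusap1 (chr2:119618198-119618297, plus strand): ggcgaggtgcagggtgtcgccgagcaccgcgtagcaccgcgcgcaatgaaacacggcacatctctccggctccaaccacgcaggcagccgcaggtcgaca
Pttg1 (chr11:43425982-43426081, minus strand): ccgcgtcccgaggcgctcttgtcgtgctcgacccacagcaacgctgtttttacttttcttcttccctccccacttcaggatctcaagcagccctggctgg

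Ube2c, Top2a, Espl1, Kif11 and Cdc20, which all rose as described below, had 1 CHR each in this stretch, with 1 to 3 CCAAT boxes. Cdk1 had 2 of each and did not pass the test. Nusap1, which rose, and Pttg1, which did not pass, had neither in these 100 bases. Promoter windows of 300 bases, from 250 before to 50 after the start, were found for 45 of the 54 genes. None was at hand for Ccna2, Cdc25c, Foxm1, Tpx2, Aurkb, Incenp, Spc24, Kif20a and Smc4. A CHR in either spelling was present in 36 of the 45 (80.0%), against 21.7% of all 27025 genes with promoter windows. Those include genes beyond the 13467 tested for expression below. A gene with several windows counted if any of them matched, and 4 of the mitosis genes had more than 1. TTTGAA was found in 73.3% of the mitosis genes and 20.2% of all genes, and TTCGAA in 11.1% and 1.80%. A CCAAT box was present in 73.3% against 41.1%, and a CHR together with a CCAAT box in 66.7% against 8.61%. A CHR match and a CCAAT match shared bases at 1 place. The CHR matches lay close to the start, with a median position of -7 and 34 of 48 within 50 bases of it, whereas CCAAT boxes lay further upstream, with a median position of -71. Where a CCAAT box lay upstream of a CHR, the nearest pair of starts was a median of 31.5 bases apart in 30 mitosis genes and 58 bases apart in 1116 genes of the whole table. A CHR was found in 29 of 35 genes that rose and in 7 of 10 that did not pass the test, so the element was common on either side of the threshold. These are letter matches only, and binding was not measured here.

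**Figure D1:**
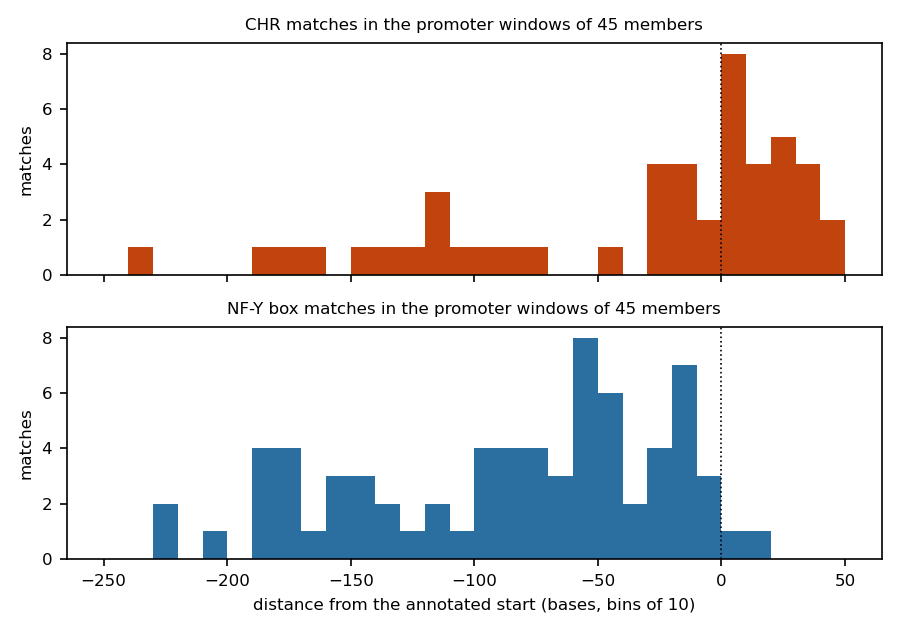
Positions of CHR matches (upper panel) and CCAAT (NF-Y) boxes (lower panel) in the promoter windows of 45 mitosis genes, as the number of matches per bin of 10 bases against the distance from the annotated start. CHR matches gather around the start (median -7) and CCAAT boxes upstream of it (median -71).

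The libraries differed in depth and in kind before any single gene was considered. They held 10978025 to 12281444 counts in EWS-OCT-4 and 13239383 to 14935887 in EGFP. The ribosomal RNA gene Rn45s took 10.41, 10.46 and 7.36% of these in EWS-OCT-4 and 6.44, 6.10 and 5.85% in EGFP. With it left out, only Ncaph among the mitosis genes changed its call in the test below. Levels are given as CPM, the counts scaled to a common library size with TMM factors. The library numbered 3 stood apart from numbers 1 and 2 of its line: chi-square over its degrees of freedom came to 32 and 32.3 in EWS-OCT-4 and to 23.7 and 25 in EGFP, while numbers 1 and 2 gave 4.21 and 3.96. Pou5f1, the gene of OCT-4, was near the detection limit with 18, 21 and 36 counts in EWS-OCT-4 and 5, 13 and 10 in EGFP, and whether fusion tags are counted there is not known. All 12 embryonic stem cell markers, with Pou5f1 counted among them, were higher in EWS-OCT-4. Their summed level was 5866 to 6441 CPM against 462 to 590 CPM in EGFP. All 12 trophoblast markers were lower, at 257 to 287 CPM against 5283 to 5805 CPM, with Plac1 and Tpbpa at 0 counts in every EWS-OCT-4 library. Of 7 giant cell markers, 4 were tested and all 4 were lower, with a sum of 0.168 to 1.02 CPM against 72.3 to 146 CPM. Hand1 was in both of these lists. It made up 89.8, 85.9 and 55.5 CPM of the giant cell sums of 143, 146 and 72.3 CPM in EGFP. Prl3d1, Prl3b1, Prl2c2, Ctsq and Pcdh12 had 0 counts in EWS-OCT-4, and Prl3b1 had 0 counts in EGFP as well. So the EGFP libraries went against their stem cell label on these markers. Of 10 fibroblast markers 7 were tested, with 2 higher and 1 lower. Of 8 primitive endoderm markers 5 were tested, with 2 higher and 3 lower. The sums over all 10 and all 8 were 26.3 to 33.6 CPM and 54.5 to 92.7 CPM in EWS-OCT-4. In EGFP they were 15.2 to 18.4 CPM and 108 to 129 CPM. In bulk RNA, fewer cells of a type and less RNA per cell cannot be told apart. The part of cell type in the differences below was not tested.

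Most mitosis genes were higher in EWS-OCT-4 and none was lower. Of the 54, all passed the filter on low counts, 40 rose, 0 fell and 14 were not called (quasi-likelihood test of edgeR, with Benjamini-Hochberg adjustment over 13467 genes and a threshold of 0.05). Over all genes tested, 33.3% were called higher and 34.1% lower, so the mitosis genes were called higher more often than genes at large and none was among the lower calls. At an unadjusted p under 0.05 the count of lower members was also 0, and DESeq2 and limma-voom gave 0 lower and 42 and 39 higher (34.3% and 34.4% of all genes lower, 33.7% and 33.5% higher). Over 17 alternatives the rises numbered 29, in a test against a 1.5-fold change (22.8% of all genes higher, 24.7% lower), to 50, with both libraries numbered 3 left out (37.6% higher, 38.0% lower). Upper-quartile factors gave 47 (38.0% of all genes higher, 30.2% lower). The median log2 fold change was 0.92, against 0.00 over all genes tested, whose middle 50% ran from -0.97 to 0.88. A rise of at least 2-fold was found for 25 of the 54 (21.8% of all genes tested). The called rises ran from 1.38-fold in Bub1 to 9.07-fold in Cenpm. Summed over the 54 genes the level was 9377, 9126 and 9701 CPM in EWS-OCT-4 and 4519, 4478 and 6634 CPM in EGFP. The 3 EWS-OCT-4 libraries lay together and above all EGFP libraries, of which number 3 was the highest. For 39 of the 54 genes every EWS-OCT-4 library lay above every EGFP library (36.0% of all genes tested), and for none below (36.7%).

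**Figure D2:**
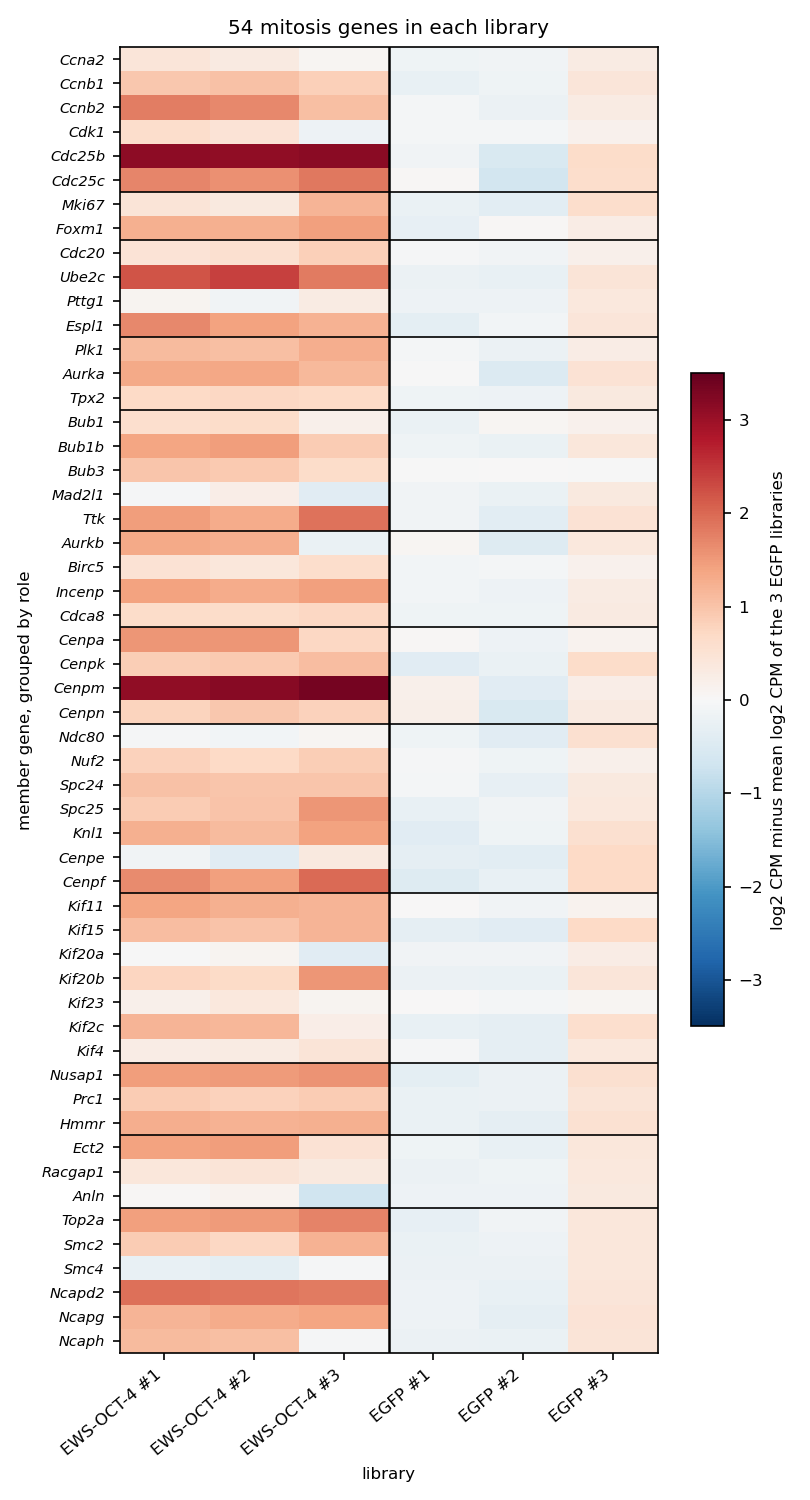
Level of each of the 54 mitosis genes (rows, grouped by role) in each library (columns, EWS-OCT-4 left and EGFP right), as log2 CPM minus the mean log2 CPM of the 3 EGFP libraries. Cdc25b and Cenpm show the strongest colour in all 3 EWS-OCT-4 libraries, and EGFP number 3 is above EGFP numbers 1 and 2 in nearly every row.

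**Figure D3:**
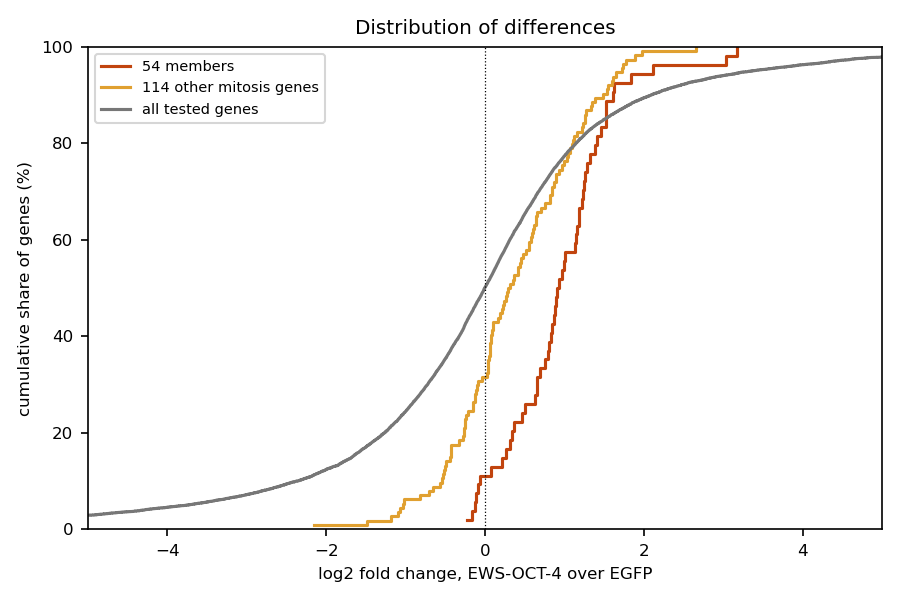
Cumulative share of genes (percent) against the log2 fold change of EWS-OCT-4 over EGFP for the 54 mitosis genes, 114 other mitosis genes of the lists below, and all 13467 genes tested. The curve of the 54 genes crosses the midpoint at 0.92 and runs within -0.23 to 3.18, while that of all genes crosses it at 0.00; the horizontal axis is limited to -5 to 5.

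The role groups below are small, and differences between their counts were not tested. Among the cyclins, CDK1 and its phosphatases, the phosphatases differed most. Cdc25b, which encodes a phosphatase that activates CDK1, stood at 60.3, 60.03 and 61.7 CPM in EWS-OCT-4 and at 6.41, 4.84 and 10.8 CPM in EGFP. The EWS-OCT-4 values were nearly equal and far above all EGFP values, a log2 fold change of 3.04 (SE 0.26, adjusted p = 4.28e-06). Below, differences and rises without a unit are log2 fold changes with the SE of the fit, and adjusted p-values are from edgeR unless another tool is named. It spans 131186949 to 131198497 of chromosome 2, plus strand (GENCODE M21, GRCm38). Cdc25c, of the same family, rose by 1.63 (SE 0.30). The B-type cyclins Ccnb1 and Ccnb2, the partners of CDK1, rose by 0.91 and 1.52. Their kinase did not pass. Cdk1 was at 373, 340.4 and 216 CPM in EWS-OCT-4 and at 232, 232 and 272 CPM in EGFP. EWS-OCT-4 number 3 lay below all EGFP libraries, so the groups overlapped (0.34, SE 0.19, adjusted p = 0.138). Ccna2, the cyclin of S phase and G2, was at 158, 148 and 125 CPM in EWS-OCT-4 against 107, 108 and 145 CPM in EGFP, again with overlap (0.26, SE 0.15, adjusted p = 0.165). With both libraries numbered 3 left out, Ccna2 and Cdk1 passed with 0.53 and 0.64 (adjusted p = 3.39e-06 and 3.3e-08). A single library sufficed: Ccna2 was at 0.41 without EGFP replicate 3 (adjusted p = 0.0291) and Cdk1 at 0.54 without EWS-OCT-4 replicate 3 (adjusted p = 0.0015), over ranges of 3.39e-06 to 0.988 and 3.3e-08 to 0.866 in 17 alternatives.

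Foxm1, the forkhead factor that transcribes many genes of this set, had 55.6, 55.9 and 63.5 CPM in EWS-OCT-4 libraries and 19.1, 24.0 and 28.2 CPM in EGFP libraries. No values overlapped, and it rose by 1.29 on the log2 scale (SE 0.17, adjusted p = 8.58e-05). The proliferation antigen Mki67, which coats mitotic chromosomes, had 135, 124 and 224 CPM in EWS-OCT-4 libraries and 83.6, 75.5 and 149 CPM in EGFP libraries. In each line number 3 was the highest, and EGFP number 3 reached above EWS-OCT-4 numbers 1 and 2. Its difference of 0.65 (SE 0.28, adjusted p = 0.0665) did not pass. It passed without EGFP replicate 3 (1.01, adjusted p = 0.00571), without EWS-OCT-4 replicate 2 (0.81, adjusted p = 0.0425), with both libraries numbered 3 left out (0.72, adjusted p = 2.89e-07) and with DESeq2 (adjusted p = 0.0368), over a range of 2.89e-07 to 0.327 in 17 alternatives.

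The anaphase genes gave 3 rises among 4 (33.3% over all genes tested). Ube2c, the ubiquitin-conjugating enzyme of the anaphase-promoting complex, was measured at 324, 374 and 250.2 CPM in EWS-OCT-4 against 61.1, 59.4 and 97.0 CPM in EGFP. Every EWS-OCT-4 value exceeded every EGFP value, with a log2 fold change of 2.12 (SE 0.22, adjusted p = 1.49e-05). Espl1 (separase) rose by 1.41 and Cdc20, the activator of the complex, by 0.63. Pttg1 (securin), the inhibitor of separase, was measured at 144, 126 and 166 CPM in EWS-OCT-4 against 119.8, 120.4 and 174 CPM in EGFP. The lines overlapped and the difference was 0.07 (SE 0.17, adjusted p = 0.722), or 0.19 with both libraries numbered 3 left out (adjusted p = 0.0386).

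All 3 genes of the Polo and Aurora A kinases rose (33.3% over all genes tested). Aurka, the kinase of spindle poles, reached 116, 118 and 100 CPM in EWS-OCT-4 and 44.97, 33.0 and 64.5 CPM in EGFP, with no overlap (1.22, SE 0.22, adjusted p = 0.000636). Tpx2, which targets and activates Aurora A, reached 203, 208 and 204 CPM in EWS-OCT-4 and 112, 111 and 158 CPM in EGFP, also with no overlap (0.69, SE 0.15, adjusted p = 0.00228). Plk1, the kinase of mitotic entry and exit, rose by 1.13.

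Of 5 checkpoint genes 4 rose (33.3% over all genes tested). Ttk, the MPS1 kinase that starts checkpoint signalling, gave 62.1, 55.1 and 84.5 CPM in EWS-OCT-4 and 20.6, 17.6 and 31.9 CPM in EGFP. Number 3 was the highest of each line, and the lines did not overlap (1.52, SE 0.24, adjusted p = 0.000304). Bub1b (BUBR1) and Bub3, which join the mitotic checkpoint complex, rose by 1.23 and 0.85. The rise of the kinase gene Bub1 was small, with 0.46 (SE 0.17, adjusted p = 0.0343), and its adjusted p was between 0.0782 and 0.160 without EWS-OCT-4 replicate 1 or 2 or EGFP replicate 1 or 2. Mad2l1 (MAD2), which binds CDC20, gave 36.1, 44.0 and 28.5 CPM in EWS-OCT-4 and 34.3, 31.8 and 47.0 CPM in EGFP. Number 3 was the lowest of EWS-OCT-4 and the highest of EGFP, and the difference was -0.06 (SE 0.21, adjusted p = 0.808). It was 0.30 with both libraries numbered 3 left out (adjusted p = 0.0459).

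The chromosomal passenger complex, which corrects wrong attachments, had 3 rises among its 4 genes (33.3% over all genes tested). Incenp, its scaffold, was found at 349, 326 and 359 CPM in EWS-OCT-4 and 124, 115 and 159 CPM in EGFP, well apart (1.38, SE 0.14, adjusted p = 1.5e-05). Birc5 (survivin) was found at 395, 365 and 426 CPM in EWS-OCT-4 and 261, 266 and 311 CPM in EGFP, apart by less (0.50, SE 0.12, adjusted p = 0.00396). Cdca8 (borealin) rose by 0.65. Aurkb, the kinase of the complex, was at 33.9, 32.5 and 11.6 CPM in EWS-OCT-4 and at 14.2, 9.96 and 17.6 CPM in EGFP. EWS-OCT-4 number 3 fell within the EGFP range, and Aurkb did not pass (0.90, SE 0.37, adjusted p = 0.0529). Without EWS-OCT-4 replicate 3 it passed with 1.25 (adjusted p = 0.00122), and the adjusted p ran from 3.1e-07 to 0.183 over 17 alternatives.

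At the centromere and inner kinetochore all 4 genes rose (33.3% over all genes tested), and Cenpm showed the largest rise of the whole set. Cenpm, a subunit of the inner kinetochore network (chromosome 15, 82233779 to 82244748, minus strand), was detected at 93.5, 99.1 and 112 CPM in EWS-OCT-4 and 12.3, 8.28 and 12.9 CPM in EGFP. EGFP number 2 lay below numbers 1 and 3, the lines were far apart, and the log2 fold change was 3.18 (SE 0.19, adjusted p = 4.29e-07). Cenpn, which binds the centromeric nucleosome, was detected at 38.2, 43.0 and 38.8 CPM in EWS-OCT-4 and 25.6, 15.5 and 27.6 CPM in EGFP, without overlap (0.80, SE 0.21, adjusted p = 0.00698). Cenpa, the histone H3 variant that marks centromeres, rose by 1.32, and Cenpk, another subunit of the network, by 0.88, where the adjusted p was 0.0106 and reached 0.0504 without EGFP replicate 2.

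In the outer kinetochore 5 of 7 genes rose (33.3% over all genes tested). Cenpf, a large protein of the kinetochore corona, had 528, 452 and 656 CPM in the EWS-OCT-4 line and 122, 139.5 and 272 CPM in the EGFP line. The lines did not overlap, and number 3 was the highest in each (1.61, SE 0.28, adjusted p = 0.000513). Cenpe, the kinesin of the corona, had 185, 155 and 256 CPM in the EWS-OCT-4 line and 162, 158 and 328 CPM in the EGFP line. Here EGFP number 3 was the highest of all 6 libraries, and the difference was -0.12 (SE 0.28, adjusted p = 0.722). Knl1, the platform for the BUB proteins, rose by 1.19. Of the NDC80 complex, which holds microtubule ends, Spc25, Spc24 and Nuf2 rose by 1.15, 0.97 and 0.79, whereas Ndc80 itself was at -0.09 (SE 0.22, adjusted p = 0.735).

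Of the mitotic kinesins 4 of 7 were higher (33.3% over all genes tested). Kif11, the motor that pushes spindle poles apart, came to 96.9, 88.0 and 84.5 CPM in EWS-OCT-4 and 37.7, 34.2 and 40.4 CPM in EGFP. The libraries of each line agreed closely and the lines were separate (1.26, SE 0.13, adjusted p = 1.93e-05). Kif20b and Kif15 rose by 1.01 and 1.00, and Kif2c, a microtubule depolymerase, by 0.87, although the Kif2c lines overlapped (adjusted p = 0.0242) and its call was lost without EWS-OCT-4 replicate 1 or 2 or EGFP replicate 1 or 2 (adjusted p = 0.0832, 0.0783, 0.101 and 0.0996). Kif4, a motor on chromosome arms, and Kif23, a motor of the central spindle, were at 0.32 and 0.21 and did not pass (adjusted p = 0.153 and 0.199). Every EWS-OCT-4 library lay above every EGFP library for Kif23, with 46.5, 52.7 and 44.1 CPM against 41.4, 39.2 and 43.1 CPM. Kif4 passed without EGFP replicate 3 (0.51, adjusted p = 0.0177), and both passed with the libraries numbered 3 left out (0.48 and 0.32, adjusted p = 0.00325 and 0.0158).

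Kif20a, a motor of the central spindle, cannot be read on its own. It came to 99.99, 109 and 77.5 CPM in EWS-OCT-4 and 92.8, 94.1 and 121 CPM in EGFP, an overlapping difference of -0.11 (SE 0.16, adjusted p = 0.587). In GENCODE M21 it overlaps Cdc23, a subunit of the anaphase-promoting complex, on the opposite strand. Kif20a had 1084, 1176 and 923 counts in EWS-OCT-4 and 1245, 1341 and 1857 in EGFP. Cdc23 had 1061, 1158 and 904 counts in EWS-OCT-4 and 1198, 1322 and 1842 in EGFP. The ratio of Kif20a to Cdc23 stayed within 1.01 to 1.04 in all 6 libraries, so tags of Kif20a cannot be told apart from those of Cdc23. Ncapg and its opposite-strand neighbour Lcorl also kept a narrow ratio of 1.41 to 1.64, and their tags are uncertain too. The use of strand in counting was not given in the sources used here. Ccnb1, Ccnb2 and Kif4 each have a pseudogene that shares their name, so some of their reads could be split.

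All 3 spindle microtubule genes rose (33.3% over all genes tested). Nusap1, which bundles microtubules near chromosomes, registered 156, 158 and 168 CPM in EWS-OCT-4 and 44.5, 48.4 and 82.5 CPM in EGFP, with EGFP number 3 the highest of its line and still below EWS-OCT-4 (1.46, SE 0.22, adjusted p = 0.000181). Prc1, which crosslinks antiparallel microtubules of the central spindle, registered 184, 175 and 184 CPM in EWS-OCT-4 and 84.8, 85.2 and 135 CPM in EGFP, without overlap (0.83, SE 0.18, adjusted p = 0.00213). Hmmr, which helps to organise spindle poles, rose by 1.19.

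Cytokinesis genes gave 1 rise among 3, the share found over all genes tested (33.3%). Ect2, the exchange factor that activates RhoA at the cell equator, showed 94.3, 98.3 and 50.6 CPM in EWS-OCT-4 and 32.0, 29.5 and 46.9 CPM in EGFP. EWS-OCT-4 number 3 was only just above the highest EGFP library, and the rise was 1.16 (SE 0.26, adjusted p = 0.00285). Anln (anillin), which links the contractile ring to the membrane, showed 80.6, 84.9 and 48.3 CPM in EWS-OCT-4 and 69.9, 69.6 and 99.0 CPM in EGFP. The highest and the lowest value were those of the libraries numbered 3, and the difference was -0.16 (SE 0.22, adjusted p = 0.549), or 0.27 with both left out (adjusted p = 0.00989). Racgap1, a partner of Kif23, was at 0.37 (adjusted p = 0.0738), and it passed without EGFP replicate 3 (0.57, adjusted p = 0.0038) and with both left out (0.62, adjusted p = 4.47e-06).

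Chromosome condensation genes rose in 5 of 6 cases (33.3% over all genes tested). Ncapd2, a condensin I subunit (chromosome 6, 125168007 to 125191701, minus strand), measured 417, 401 and 383 CPM in EWS-OCT-4 and 97.2, 92.0 and 145 CPM in EGFP. All EWS-OCT-4 values were far above EGFP (1.84, SE 0.17, adjusted p = 8.56e-06). Top2a, the topoisomerase that untangles sister chromatids, rose by 1.53, and the condensin genes Ncapg, Smc2 and Ncaph by 1.25, 0.93 and 0.76. The Ncaph lines overlapped (adjusted p = 0.0446), and its call was lost in 10 of the 17 alternatives, among them limma-voom (adjusted p = 0.0677) and EWS-OCT-4 replicate 1 or 2 or EGFP replicate 1 or 2 left out (adjusted p = 0.153, 0.139, 0.152 and 0.149). Smc4, the ATPase that pairs with SMC2, measured 553, 523 and 634 CPM in EWS-OCT-4 and 569, 571 and 871 CPM in EGFP. Its lines overlapped and its difference was the lowest of the set, at -0.23 (SE 0.17, adjusted p = 0.254).

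**Figure D4:**
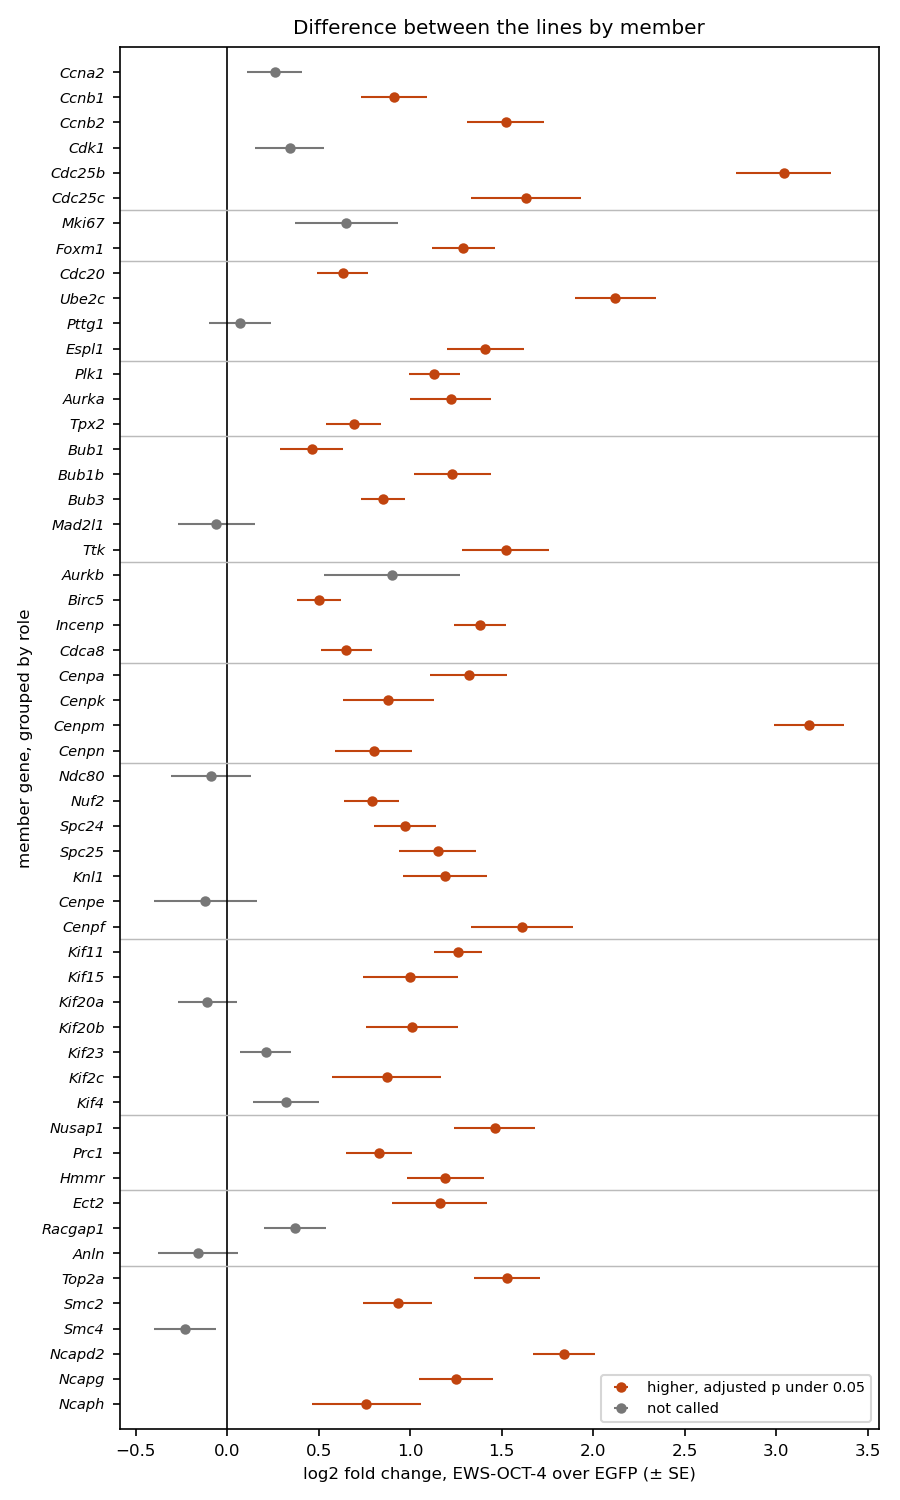
Log2 fold change of EWS-OCT-4 over EGFP with its SE (horizontal bars) for each of the 54 mitosis genes, grouped by role as in the plot of levels by library, with n = 3 libraries per line. The 40 coloured points passed the test, from 0.46 in Bub1 to 3.18 in Cenpm, and the 14 grey points did not.

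The libraries numbered 3 did not deviate alike over these genes. In EGFP, number 3 lay above the mean of numbers 1 and 2 in 53 of the 54 genes, with a median deviation of 0.57 (log2 of CPM + 0.5), whereas over all genes tested the median was 0.00 and 50.6% lay above. In EWS-OCT-4, number 3 lay above in 29 and below in 25 genes, with a median of 0.04 and a range of -1.48 to 0.81. The lowest were Aurkb, Ncaph, Kif2c, Ect2 and Cenpa, at -1.48, -1.09, -0.94, -0.92 and -0.81. The highest were Kif20b, Mki67, Spc25 and Cenpe, at 0.81, 0.79, 0.60 and 0.60. Between the libraries of the same number, the median difference of the 54 genes was 1.19, 1.22 and 0.59 for numbers 1, 2 and 3. EWS-OCT-4 was the higher in 53, 52 and 41 of them. Over all genes tested the medians were -0.01, -0.01 and -0.02, and EWS-OCT-4 was the higher in 49.8, 49.6 and 49.3%. EGFP number 3 also had the highest stem cell marker sum of its line (590 CPM, against 462 and 465 CPM). Its giant cell sum was the lowest (72.3 CPM, against 143 and 146 CPM), and its trophoblast sum was 5283 CPM, against 5805 and 5737 CPM. Single trophoblast and giant cell markers went both ways. In EGFP number 3, Cdx2 (37.5 CPM, against 22.6 and 24.1) and Flt1 (8.26 CPM, against 7.09 and 6.94) were the highest of the line. Krt8 (1492 CPM, against 1919 and 1860) and Prl3d1 (4.75 CPM, against 39.8 and 43.8) were the lowest. The part of these markers in the result was not tested.

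**Figure D5:**
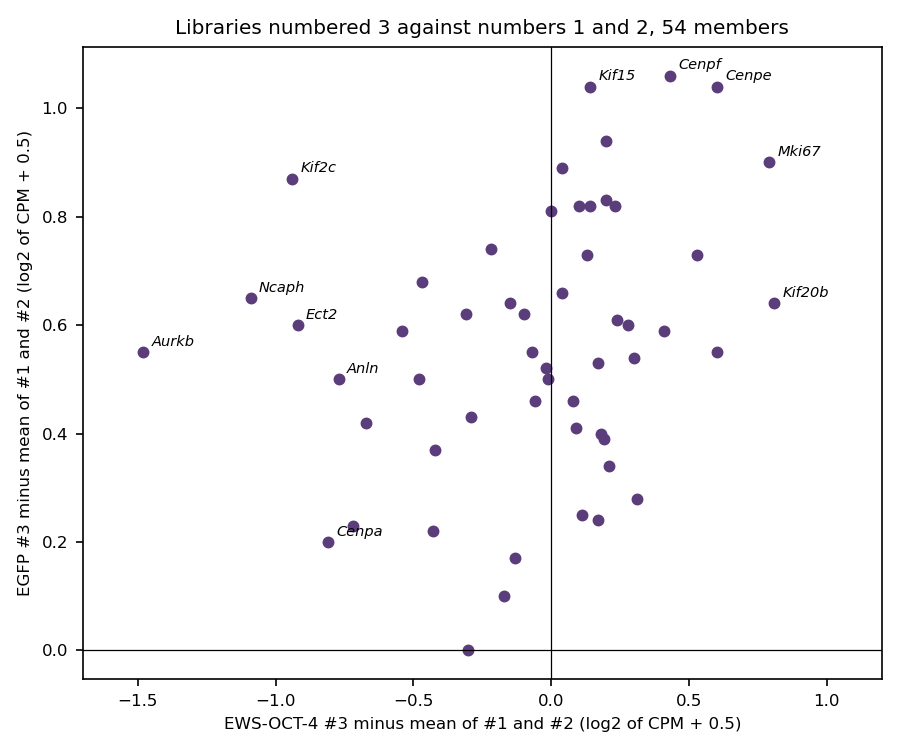
Deviation of the library numbered 3 from the mean of numbers 1 and 2 of its line, on the log2 scale of CPM + 0.5, for the 54 mitosis genes (points), with EWS-OCT-4 on the horizontal and EGFP on the vertical axis. Nearly all points lie above 0 for EGFP, while for EWS-OCT-4 they spread from -1.48 (Aurkb) to 0.81 (Kif20b).

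Other mitosis genes were called in both directions. Over 6 further lists with 114 genes, all tested, 50 rose (43.9%), 17 fell (14.9%) and 47 did not pass, with a median of 0.30. Of all genes tested, 33.3% were higher and 34.1% lower. The anaphase-promoting complex and its regulators had 7 higher (41.2%) and 4 lower (23.5%) of 17, a share of rises near that over all genes and no result about the list. Fbxo5, its inhibitor EMI1, was at 113, 104 and 79.0 CPM in EWS-OCT-4 and at 19.8, 28.0 and 48.8 CPM in EGFP, without overlap (1.61, SE 0.29, adjusted p = 0.000683). Among 30 other centromere and kinetochore genes 14 rose (46.7%) and 3 fell (10%). Zwint, a kinetochore protein that binds KNL1, had the largest change and was lower, with 115, 124 and 122 CPM in EWS-OCT-4 and 537, 607 and 449.9 CPM in EGFP (-2.15, SE 0.14, adjusted p = 5.52e-07). The cohesin list had 7 higher (50%) and 2 lower (14.3%) of 14. Cdca5 (sororin), which protects cohesion, was at 38.65, 43.2 and 50.9 CPM in EWS-OCT-4 and at 13.65, 14.9 and 18.5 CPM in EGFP, without overlap (1.49, SE 0.18, adjusted p = 4.53e-05). Condensin II had 1 higher of 3, again the share over all genes. That gene was Ncapd3, with 53.5, 50.06 and 57.85 CPM in EWS-OCT-4 and 24.8, 24.97 and 25.1 CPM in EGFP, nearly level within EGFP (1.11, SE 0.14, adjusted p = 5.2e-05). Centrosome and spindle assembly genes had 14 higher (42.4%) and 6 lower (18.2%) of 33, with the rises again near the share over all genes and no result about the list. Cep55, a midbody protein, was at 128, 113 and 64.8 CPM in EWS-OCT-4 and at 34.7, 31.3 and 25.6 CPM in EGFP, with number 3 the lowest of each line (1.74, SE 0.24, adjusted p = 0.00012). Of the genes of mitotic entry and of B-MYB and MuvB, 7 rose (41.2%) and 2 fell (11.8%) among 17. This share of rises was likewise near that over all genes and no result about the list. Mybl2, which encodes B-MYB, had 383, 361 and 510.3 CPM in EWS-OCT-4 and 58.6, 55.5 and 84.9 CPM in EGFP, wholly apart (2.66, SE 0.20, adjusted p = 1.77e-06). The lower genes here were Wee1, the kinase that holds CDK1 inactive, and Lin9, a MuvB subunit, at -1.10 (SE 0.17) and -1.19 (SE 0.14). Of 16 DNA replication genes 14 rose (87.5%) and 0 fell, with a median of 1.22 beside the 0.92 of the mitosis genes. Their differences ran from 0.29 to 2.55, the highest in Mcm3 of the replicative helicase, with 655, 701.5 and 682 CPM in EWS-OCT-4 and 108, 104 and 135 CPM in EGFP (SE 0.13, adjusted p = 1.77e-07). At an unadjusted p under 0.05 the count of lower genes was also 0 with edgeR, DESeq2 and limma-voom.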

How the data were processed

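Libraries were made with a Lexogen QuantSeq kit, which tags the 3′ ends of transcripts, from 500 ng of Trizol-extracted RNA, per the labels' protocols. Bowtie2, edgeR and mm10 are named in the submitters' processing notes; their versions and roles, the counter and its annotation were not given in the sources used here. The authors deposited raw counts of each library by gene symbol, in 23282 lines for 23238 symbols. The 35 symbols on several lines were summed and held no mitosis gene. Older symbols were matched through RefSeq's gene table (GRCm38.p6).

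Samples were grouped by title, 3 libraries per line. After TMM scaling, 1 count stood for 0.0650 to 0.0924 CPM. Counts were scaled by TMM (factors 0.971 to 1.03), filtered with filterByExpr (minimum count 10, total 15) and tested with edgeR 4.0.16 (robust quasi-likelihood F test, 2-sided, Benjamini-Hochberg at 0.05) over 13467 genes. The dispersion came to a biological coefficient of variation of 19.3%, and SEs are the log2 fold change over the square root of F. On simulated data for 13264 genes of this comparison, 100 genes were changed 2-fold and 100 were changed 4-fold, up and down in equal number. The test recovered 57% of the 2-fold and 95% of the 4-fold changes, and 6.75% of its calls were false. No simulated library was made to deviate, and in the real data 33.3% of genes were called higher and 34.1% lower. These rates therefore need not hold for the real data. Alternatives used DESeq2 1.42.0, limma-voom (limma 3.58.1), other scalings and filters, and libraries left out.

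The genes, lists and tests were chosen with earlier results of these data known. Full values are given for the member with the highest and the lowest log2 fold change of each of 12 role groups, and in each further list for the called gene with the largest change at a mean of at least 10 CPM; Wee1, Lin9, Cdc23 and the values of Cdk1, Aurkb and Kif23 in each library were added after their values were seen.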

Additional observations from a re-analysis of the deposited data

How the results depend on the processing

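Of the 40 mitosis genes that rose, 29 were called in all 17 alternatives, 11 lost the call in at least 1, and none of the 40 turned its sign. The count of rises ran from 29 (test against a 1.5-fold change) to 50 (both libraries numbered 3 left out), and no member was called lower in any of them. The median of the 54 genes was 1.22 with both libraries numbered 3 left out and 0.81 to 1.19 with single libraries left out, the highest without EGFP replicate 3. Upper-quartile factors moved the median of all genes by 0.16 and gave 47 rises, with 5119 higher and 4061 lower genes over all. Under them the differences of Mad2l1, Ndc80, Cenpe, Kif20a and Anln turned to 0.10, 0.07, 0.03, 0.06 and 0.00, and with both libraries numbered 3 left out to 0.30, 0.21, 0.11, 0.18 and 0.27. With single libraries left out they ran from -0.22 to 0.13, -0.29 to 0.23, -0.34 to 0.31, -0.21 to 0.03 and -0.30 to 0.06, and Pttg1 ran from -0.04 to 0.27. The cause was not tested. Beside the losses given with their genes, Cdc20, Tpx2, Birc5, Cdca8, Cenpn, Nuf2 and Prc1 lost their calls only in the 1.5-fold test (adjusted p = 0.0631 to 0.661). Ndc80, Cenpe, Kif20a and Smc4 were called in none of the alternatives.

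By role, rises of Foxm1 and Mki67 numbered 2 in place of 1 with upper-quartile factors, DESeq2, the replicate block and both libraries numbered 3 left out, and 1 to 2 with single libraries left out. Cytokinesis rises numbered 2 with upper-quartile factors, 3 without both libraries numbered 3, and 1 to 2 with single libraries left out. The test against a 1.5-fold change left 1 passenger complex and 2 inner kinetochore genes, 4 higher and 1 lower gene of the anaphase-promoting complex, 1 lower kinetochore gene, 4 higher and 0 lower cohesin genes, and 8 higher and 2 lower centrosome genes. An adjusted p of 0.01 left 1 lower gene of the anaphase-promoting complex, 1 lower kinetochore gene and 3 lower centrosome genes. Upper-quartile factors left 2 and 3 lower genes of the anaphase-promoting complex and the centrosome list, and with single libraries left out the count of the anaphase-promoting complex was 2 to 5. In the nearer promoter window, from 100 bases before to 50 after the start, the shares were 75.6% against 9.87% for the CHR and 62.2% against 26.3% for the CCAAT box. Whether equal numbers pair the libraries was not given in the sources used here. The deviations of numbers 1, 2 and 3 from their line correlated at 0.0402, 0.052 and 0.152 across genes between the lines. Between unequal numbers the values were 0.0753 and 0.0755 for numbers 1 and 2, and -0.102 to -0.0903 where either library was number 3. What the libraries numbered 3 share was not tested. A replicate block kept 40 rises, with Mki67 gained (adjusted p = 0.000934) and Ncaph lost (adjusted p = 0.0785).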

Other observations

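Genes whose products work as partners did not always differ alike between the lines. These pairs were chosen after the values were seen, so the ratios below are given as a description with no test. The log2 ratio of Smc2 to Smc4, the ATPase pair of condensin, was -0.47, -0.54 and -0.34 in EWS-OCT-4 and -1.62, -1.56 and -1.61 in EGFP, so it was higher in EWS-OCT-4 by 1.15 and held nearly level within each line. Bub1b to Mad2l1, both of the mitotic checkpoint complex, gave 2.05, 1.84 and 1.89 in EWS-OCT-4 and 0.58, 0.62 and 0.69 in EGFP. Espl1 (separase) to Pttg1 (securin) gave -0.83, -0.90 and -1.48 in EWS-OCT-4 and -2.56, -2.32 and -2.35 in EGFP. Ccnb2 to Cdk1 gave -1.27, -1.25 and -1.21 in EWS-OCT-4 and -2.44, -2.58 and -2.32 in EGFP. These 4 ratios, and those of Ccnb1 to Cdk1 and Nuf2 to Ndc80 (higher by 0.64 and 0.82), did not overlap between the lines. Among single genes tested, 36.0% lay wholly above and 36.7% wholly below in EWS-OCT-4, and the share over other pairs of genes was not computed, so nothing particular to these pairs is read from it. The ratios of Incenp to Aurkb and of Kif23 to Racgap1 overlapped, with mean differences of 0.60 and -0.19. A ratio of tags of different genes has no absolute meaning, because 3′ ends can be captured unequally, and only its change between libraries is read here.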
